A study of Mikania micrantha with 15 samples.

Results

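Flower and shoot apex of the vine Mikania micrantha were compared by RNA sequencing, over all gene IDs with enough reads and in both directions. The comparison took the 3 flower libraries and the 3 shoot apex libraries, 6 of the 15 in the series, as the labels name them. The other libraries came from leaf, root and stem and are used here only to place the genes that differed. All were from wild-type vines grown from cuttings that were rooted in water until roots were 4 to 5 cm long. The plants then spent 60 days in Hoagland solution, a mineral nutrient medium, at 24 °C, lit for 16 h and dark for 8 h of each day. The labels give no flower stage, no number of plants and no plant behind each replicate, so p-values here rest on differences among libraries that may be technical in part.

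A flower of the daisy family is a small floret packed with others into a head, and it brings together several organs, among them corolla, anthers with pollen, and carpel with ovule. The shoot apex holds the apical meristem, the dividing tissue that forms new leaves and stem, together with the young leaves around it. Flowers arise from such meristems when floral identity genes switch their fate, so the comparison sets a reproductive organ against the growing tip of the shoot. Each library is a mixture of all cells in the organ, and more cells of a type cannot be told apart from more RNA per cell.

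The 6 libraries held 9567064 to 12817396 counts. Of 41487 IDs in the table, 7277 had no read in these libraries, 8558 had too few reads to test and 25652 were tested, with 99.8% of the counts. The deposited table names genes by locus tag and gives no symbols, so known flower and meristem genes could not be looked up and the tissue labels could not be checked against markers. Across the tested genes, Pearson's r of log2 expression was 0.972 to 0.982 between flower libraries, 0.977 to 0.991 between shoot apex libraries and 0.697 to 0.747 between the tissues. Flower replicate 1 lay nearest to shoot apex: its r with the shoot apex libraries was 0.743 to 0.747, against 0.697 to 0.707 for flower replicates 2 and 3. Within shoot apex, replicate 1 was the least alike: its r with replicates 2 and 3 was 0.978 and 0.977, against 0.991 between those.

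A gene was called when its adjusted p in edgeR's quasi-likelihood test was under 0.05 and its change was at least 2-fold. By this rule 8723 of the 25652 genes differed, 34.0%. Flower was higher for 5096 of them, 19.9% of the genes tested, and shoot apex for 3627, 14.1%. In 98.9% of the genes called in each direction, all 3 libraries of the higher tissue lay above all 3 of the other, as did 71.8% of all tested genes in one direction or the other. With plain library totals in place of scaling by the trimmed mean of M-values, all fold changes moved by a median of -0.14 on the log2 scale. The share of calls higher in flower then went from 58.4% to 51.7%.

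The directions differed in the size of the change. Genes higher in shoot apex were mostly raised by small folds: 2508 of 3627, 69.1%, lay between 2-fold and 4-fold, against 2093 of 5096, 41.1%, of those higher in flower. At the other end, 1077 genes were at least 32-fold higher in flower and 54 at least 32-fold higher in shoot apex. The median difference was 5.43-fold for genes higher in flower and 2.98-fold for genes higher in shoot apex. At the 2-fold limit the values ran on without a break, with called genes from a log2 fold change of 1.00018 in flower and uncalled ones up to 0.999991.

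**Figure D1:**
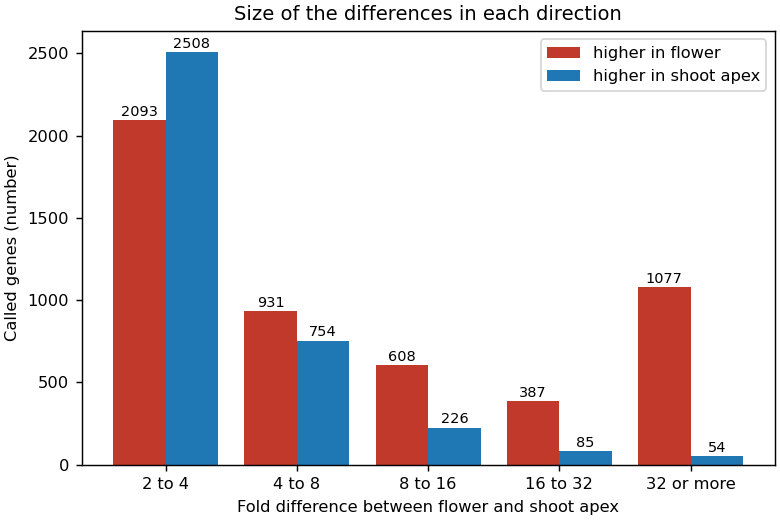
Number of called genes (vertical axis) in bands of the fold difference between flower and shoot apex (horizontal axis), red for genes higher in flower and blue for genes higher in shoot apex. The band of 2 to 4 holds more shoot apex genes (2508 against 2093), and the band of 32 or more holds 1077 flower genes against 54.

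The strongest flower genes were close to silent in the shoot apex. Of the 1077, 457 had no read in any shoot apex library, and of the 54 strongest shoot apex genes 13 had no read in flower. A fitted fold has no firm size for a gene without reads in one tissue. Ratios of mean counts per 1000000 (CPM) were therefore taken with the lower tissue at no less than a floor of 3 counts over its 3 libraries, which is 0.0716 CPM in shoot apex and 0.0839 CPM in flower. On that measure 921 genes were at least 32-fold higher in flower and 51 in shoot apex. The summed level of the 1077 genes was 33442, 41423 and 40360 CPM in flower replicates 1, 2 and 3 and 232 to 254 CPM in the shoot apex libraries. The sums lay far apart in every library, which follows from how the genes were chosen. Flower replicate 1 was the lowest of the flower libraries. Without that library the counts were 1167 and 105, without a filter on low counts 1518 and 120, and with DESeq2 1438 and 84.

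Detection alone showed the same imbalance. At least 1 CPM in all 3 flower libraries and no read in any shoot apex library was found for 425 IDs. The reverse, at least 1 CPM in all 3 shoot apex libraries and no read in flower, was found for 9. The flower-side IDs had a median of 6.36 CPM in flower, reached 597 CPM, and were each at least 14.9-fold above the shoot apex floor. The 9 shoot apex IDs had a median of 2.84 CPM and reached 12.3 CPM. With every library thinned to the smallest total the counts were 437 and 12, about as far apart as at full depth. The small count moved with single libraries: it was 29 without flower replicate 1, 15 without flower replicate 2 and 16 without shoot apex replicate 1, beside 456, 445 and 514 on the flower side.

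**Figure D2:**
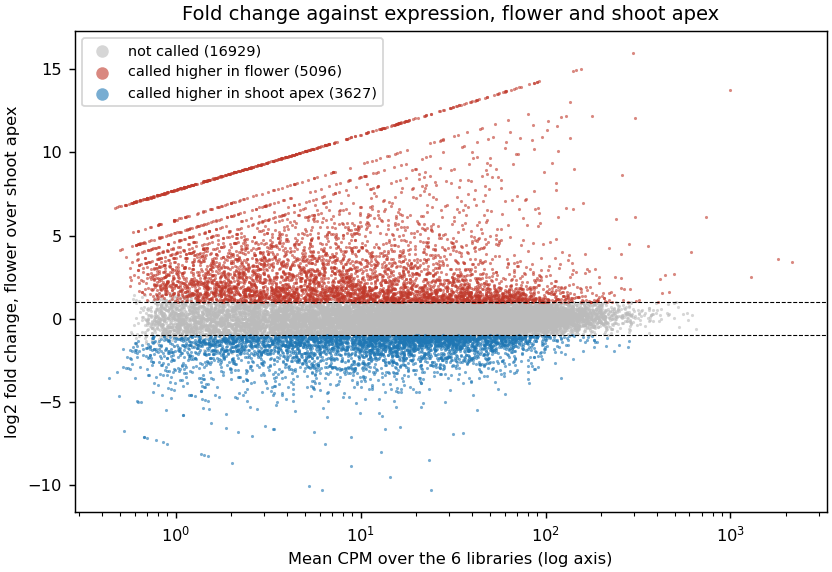
Log2 fold change of flower over shoot apex (vertical axis) against mean CPM over the 6 libraries (horizontal, log axis), 1 point per tested gene, with dashed lines at 2-fold. Red points (5096) rise far above the band of uncalled genes in grey, while blue points (3627) stay mostly within a few log2 units below it; the slanting red lines at the top are IDs with no read or a few reads in shoot apex, whose fitted fold depends on the fit's prior count.

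In each band of expression more genes were higher in flower than in shoot apex, though from 20 to 100 CPM the numbers were nearly equal. Under 1 CPM the shares were 41.9% and 17.0% of 879 genes. Among 5213 genes with an average of 1 to 5 CPM over the tissues, 33.9% were higher in flower and 18.0% in shoot apex. From 5 to 20 CPM the shares were 22.0% and 18.2% of 7104 genes. From 20 to 100 CPM they were 11.3% and 11.1% of 10704 genes. At 100 CPM and above, 189 of 1752 genes were higher in flower, 10.8%, and 53 in shoot apex, 3.03%. A weak gene has to differ more to pass the filter and the test, so shares are best compared within a band and not between bands. CPM is a share of reads and was not divided by transcript length.

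Reads in flower were concentrated in fewer genes than reads in shoot apex, which was the least concentrated of the 5 organs. The 10 most abundant IDs of each library took 1.25, 2.15 and 2.31% of the counts in flower replicates 1, 2 and 3, and 0.659, 0.638 and 0.670% in the shoot apex replicates. Their share was 1.23 to 3.84% in leaf, 3.31 to 8.07% in root and 1.70 to 5.83% in stem. The 100 most abundant took 4.99, 6.79 and 6.67% in flower and 4.10, 3.95 and 4.16% in shoot apex. In both measures every flower library lay above every shoot apex library (two-sided exact permutation test, p = 0.1 for each, the smallest that 3 against 3 libraries allow).

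Called genes carried a larger share of the reads in flower than in shoot apex. Genes higher in flower took 18.6, 21.6 and 21.1% of the counts in the flower libraries and 5.09, 4.99 and 4.86% in the shoot apex libraries. Genes higher in shoot apex took 13.1, 13.5 and 13.3% of the counts there and 4.71, 3.50 and 3.80% in flower. These shares follow from how the genes were chosen and are given without a test. In both sets flower replicate 1 was the flower library closest to the shoot apex level.

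The flower gene with the largest ratio, E3N88_15267, was abundant in flower and at or near 0 in most other libraries. Its level was 1160, 2235 and 2535 CPM in flower replicates 1, 2 and 3, against 0.0713, 0.33 and 0 CPM in the shoot apex replicates, where 6 reads were counted in all. The ratio of summed reads, each sum divided by the scaled library totals of its tissue, was 13349 (edgeR adjusted p = 1.63e-07). The 95% exact (Clopper-Pearson) interval of this ratio was 6133 to 36377, which covers counting error only. Elsewhere E3N88_15267 had no read in stem, 1 read in root, and 160, 0 and 0.306 CPM in leaf replicates 1, 2 and 3. Leaf replicate 1 was thus the only leaf library with more than a trace of it.

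E3N88_24217 had the highest read level in flower of all genes called higher there, and is a gene of other organs as well. It reached 2263, 4529 and 5033 CPM in flower and 484, 331 and 332 CPM in shoot apex. The log2 fold change was 3.44 ± 0.312 (SE, n = 3 and 3, edgeR adjusted p = 1.62e-05). Root and stem lay higher but unevenly, at 2738, 35352 and 22909 CPM in root replicates 1, 2 and 3 and 23549, 15270 and 2804 CPM in stem. Leaf held 4930, 1295 and 3629 CPM. The shoot apex libraries were the lowest of all 15, and the root and stem replicates were widely spread.

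The shoot apex gene with the largest ratio, E3N88_20997, was low in flower and present in every other organ. Shoot apex held 39.8, 48.6 and 56.0 CPM, and flower 0.0717, 0 and 0 CPM, which is 1 read in flower replicate 1. The ratio of summed reads, scaled in the same way, was 1712 with a 95% exact interval of 307 to 67654 (edgeR adjusted p = 9.43e-08). Leaf was at 46.2 ± 3.16 CPM (SD, n = 3), stem at 23.9 ± 2.94 and root at 20.6 ± 5.96. Leaf and shoot apex overlapped, and the 12 libraries outside flower lay between 14.006 and 56.0 CPM.

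E3N88_06452 had the highest read level in shoot apex among genes called higher there. It was at 376, 441 and 473 CPM in shoot apex and 139, 136 and 105 CPM in flower. The log2 fold change was -1.69 ± 0.136 (SE, edgeR adjusted p = 8.3e-06), a graded difference with no overlap. Stem matched the shoot apex range at 418 ± 56.0 CPM, leaf was at 89.4, 285 and 170 CPM, and root was at 3.53, 3.64 and 4.03 CPM. The larger contrast for this ID was therefore with root.

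**Figure D3:**
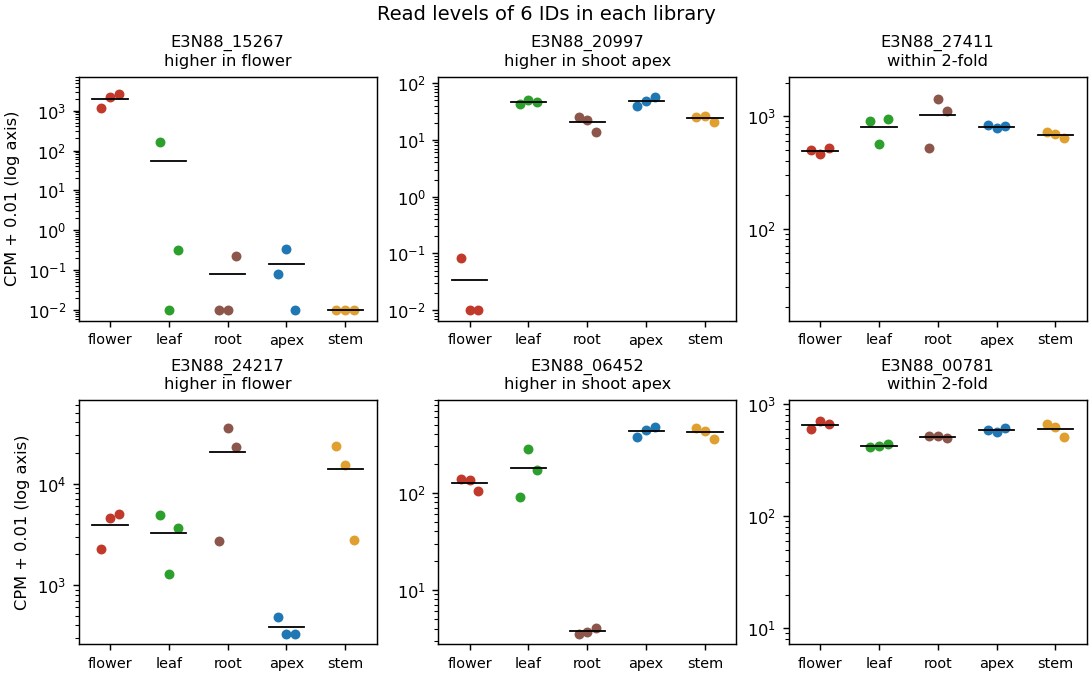
CPM plus 0.01 (vertical, log axis, a range of its own in each panel) of 6 IDs in the 3 libraries of each organ (points; horizontal line, mean). E3N88_15267 is high in the 3 flower libraries and in leaf replicate 1, E3N88_20997 is missing or at 1 read in flower only, E3N88_24217 is lowest in shoot apex, E3N88_06452 is lowest in root, and the right-hand pair differs little between flower and shoot apex.

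Many genes were shown to be close in both tissues. For 11743 genes, 45.8% of those tested, the 95% interval of the log2 fold change lay between -1 and 1, so that a 2-fold difference was outside it. Of these, 4931 still had an edgeR adjusted p under 0.05. The remaining 5186 genes, 20.2%, were neither called nor placed within 2-fold. The share placed within 2-fold grew with expression, from 1.71% of genes under 1 CPM to 76.5% of those at 100 CPM and above. They took 62.4 to 64.3% of the counts in the flower libraries and 68.3 to 69.0% in the shoot apex libraries.

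Among them the highest read levels belonged to E3N88_27411 and E3N88_00781. E3N88_00781 was at 595, 707 and 660 CPM in flower and 585, 558 and 611 CPM in shoot apex, and the groups overlapped. Its log2 fold change was 0.24, with a 95% interval of 0.0034 to 0.47 (edgeR adjusted p = 0.0698). E3N88_27411 was at 499, 461 and 526 CPM in flower and 834, 782 and 813 CPM in shoot apex. These did not overlap. The log2 fold change was -0.63, with a 95% interval of -0.85 to -0.41 (edgeR adjusted p = 0.000411). With all 15 libraries in 1 fit its log2 fold change was -0.71 and it was no longer placed within 2-fold.

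Leaf, root and stem, which had no part in the calls, showed where the 2 sets of genes stood in the rest of the plant. Genes higher in flower had a median of 11.7 CPM in flower and 1.46 in shoot apex, with leaf at 2.75, root at 3.48 and stem at 2.50. Flower was the highest of the 5 organs for 2799 of the 5096, 54.9%. Root was the highest for 1149, 22.5%, leaf for 577, 11.3%, and stem for 571, 11.2%. Over all tested genes flower was the highest for 18.9%, root for 20.5%, leaf for 17.8%, stem for 15.4% and shoot apex for 27.4%. The set was chosen with flower above shoot apex, so shoot apex could not be the highest in it. The choice itself raises the flower share, and the comparison is a description.

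For many of the flower-higher genes the shoot apex was the low organ. Root lay above flower in 1526 of the 5096 genes, between the tissues in 1783 and below shoot apex in 1787. Stem lay above flower in 1211, between in 2105 and below shoot apex in 1780. The counts for leaf were 1030, 2491 and 1575, and without leaf replicate 1 they were 924, 2418 and 1754. Shoot apex was the lowest of the 5 organs for 1969 genes, 38.6%, and for 18.8% of all tested genes. Flower could not be the lowest in this set by its choice, which raises the shoot apex share. The flower set took 16.4 to 22.0% of the counts in root and 11.7 to 17.7% in stem, and the root values took in the range seen in flower. E3N88_24217 with its 35352 CPM in root replicate 2 is 1 of the genes in that sum.

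Most genes higher in shoot apex also peaked there. Shoot apex was the highest organ for 2490 of 3627, 68.7%, against 27.4% of all tested genes, leaf for 528, root for 314 and stem for 295. By the choice of the set, flower could not be the highest in it nor shoot apex the lowest. Comparisons with all tested genes are therefore a description here. The median was 18.1 CPM in shoot apex, 6.57 in leaf, 5.34 in stem, 4.88 in flower and 4.05 in root. Root lay below flower in 2278 of these genes, 62.8%, stem in 1872, 51.6%, and leaf in 1445, 39.8%. Root was the lowest organ for 1442, 39.8%, against 29.9% of all tested genes. The set took 4.12 to 7.65% of the counts in leaf, root and stem libraries, against at least 13.1% in every shoot apex library.

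The fold against the other tissue separated the flower genes by organ pattern, and did so less for the shoot apex genes. Between 2-fold and 4-fold, flower was the highest organ for 40.5% of the flower-higher genes and root for 27.8%. These shares were 49.6% and 26.1% from 4-fold to 8-fold, 55.9% and 23.5% from 8-fold to 16-fold, and 63.6% and 19.4% from 16-fold to 32-fold. At 32-fold and above, flower was the highest for 903 of 1077, 83.8%, and root for 107, 9.94%. Shoot apex was the highest organ for 64.7 to 74.1% of the shoot apex-higher genes in all 5 bands. Since flower and shoot apex values set both the bands and the comparison of organs, these shares are given as a description.

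**Figure D4:**
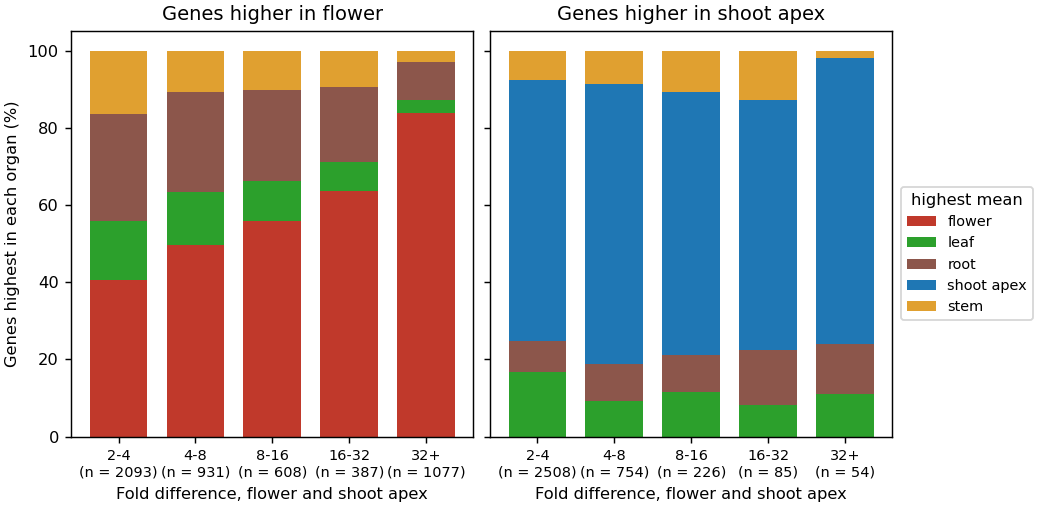
Share of called genes (vertical axis, %) whose highest mean CPM was in each of the 5 organs (colours), by the fold difference between flower and shoot apex (horizontal axis, with the number of genes), for genes higher in flower (left) and higher in shoot apex (right). The red part on the left grows from 40.5% to 83.8%, and the blue part on the right stays between 64.7% and 74.1%.

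Most of the 1077 strongest flower genes were sparse outside flower, with exceptions in every organ that summed to a sizeable level in root. In root 206 of them, 19.1%, reached 1 CPM in every library, as did 154 in stem, 14.3%, and 136 in leaf, 12.6%. No read at all was found for 517 in root, 513 in stem and 212 in leaf. Depth was unequal: the floor of 3 counts is 0.179 CPM in root, 0.148 in stem and 0.0999 in leaf, so these numbers give no order of the organs. The leaf libraries were uneven: leaf replicate 1 had reads for 790 of the 1077, the second leaf library for 484 and the third for 432. Their summed level was 5796, 2050 and 3243 CPM in leaf replicates 1, 2 and 3. Single root and stem libraries had reads for 348 to 502 of the 1077. Leaf replicates 2 and 3 lay in that range and leaf replicate 1 above it, at unequal depth. The source of the reads in leaf replicate 1 was not tested.

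Leaf replicate 1 also stood out for the 425 IDs read in flower and not in shoot apex. In leaf replicate 1, 265 of them had a read, against 81 and 69 in replicates 2 and 3. No read in root or stem was found for 251. The limit of 1 CPM in every library was passed by 37 in root, 14 in stem and 11 in leaf. Most of this class was therefore absent at this depth from root and stem as well as from shoot apex. Of the 9 IDs read in shoot apex and not in flower, each had a read in root or stem.

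Each library was also set against genes called without it. Leaving out flower replicate 1, 5469 genes were called higher in flower and 4198 higher in shoot apex from the other 5 libraries. In the left-out library 99.0% and 99.7% of these lay on the called side of the opposite tissue. The same share was 97.3 to 99.9% for each of the other 5 libraries in each direction. The lowest, 97.3%, was that of shoot apex replicate 1 among genes higher in shoot apex. The libraries of the opposite tissue had a part in the call, so the agreement is given as a description.

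The differences were smaller in flower replicate 1. Its log2 distance from shoot apex was a median of 89.8% of that of flower replicates 2 and 3 for the flower-higher genes. For the shoot apex-higher genes it was 80.4%. The values were 104 and 108% for flower replicate 2, 102% in both directions for flower replicate 3, and 96.7 to 100.4% for the shoot apex replicates. A change of at least 2-fold was reached in flower replicate 1 by 76.3% and 68.3% of the genes, and by 82.5 to 90.9% in the other libraries. Flower replicate 1 was the lowest flower library for 2742 of the 5096 flower-higher genes, 53.8%, and for 37.0% of all tested genes.

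**Figure D5:**
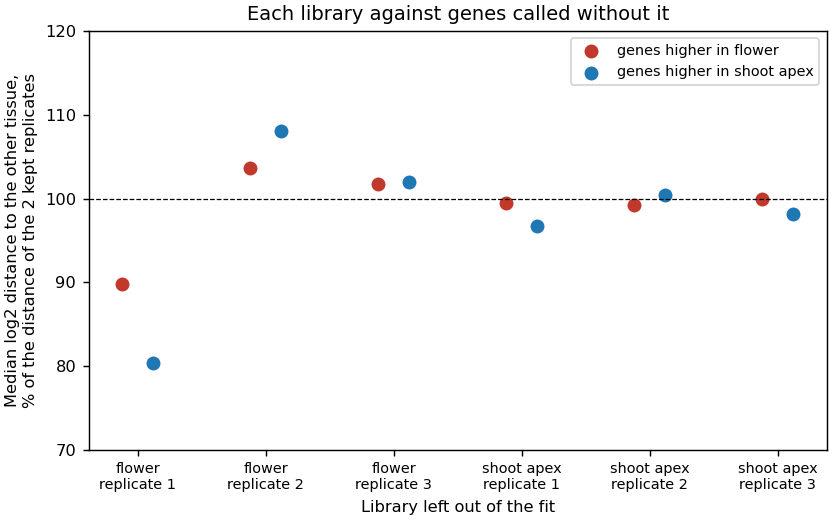
Median log2 distance of each library from the opposite tissue, as a percentage of the distance of the 2 replicates kept in the fit (vertical axis, which starts at 70), over genes called without that library (horizontal axis), red for genes higher in flower and blue for genes higher in shoot apex. Flower replicate 1 lies at 89.8% and 80.4%, and the other 5 libraries lie between 96.7% and 108%.

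Each library held reads of some IDs that the others of its tissue lacked, and among flower libraries replicate 1 held the most. It was also the deepest flower library, at 11770796 counts. With flower replicate 1 set aside, 29 IDs had at least 1 CPM in every shoot apex library and no read in flower replicates 2 and 3. In flower replicate 1, 20 of the 29 had reads, 54 in all, with a summed level 2.17% of that in shoot apex. For flower replicate 2, 6 of 15 IDs had reads, with a share of 0.798%. For flower replicate 3 it was 3 of 12 IDs, with a share of 1.20%. The shoot apex libraries were each set against flower in the same way over 484 to 523 IDs. In them 59 to 98 IDs had reads, with a share of 0.0830 to 0.130%. A cause for the place of flower replicate 1 was not tested.

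Genes called higher in 1 tissue were in part neighbours by ID number, which is given as a description without a test. The next ID was also higher in flower for 928 of the 5096 flower-higher genes, 18.2%, and for 13.8% of all tested genes. For the shoot apex-higher genes the share was 13.6%, against 9.41%. Among genes at least 8-fold higher in flower, 221 of 2072, 10.7%, were followed by another such gene, against 5.52% of all tested genes. In shoot apex the values were 17 of 365, 4.66%, against 0.862%. Number order is that of the deposited table, and no map was used to place the IDs. Near-identical copies may share reads in ways the sources used here do not describe.

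Runs of 5 or more consecutive IDs called the same way numbered 6 in flower, with 32 genes, and 4 in shoot apex, with 25 genes. The longest flower runs were 2 of 6 IDs each, and that with the larger summed level is described. This run, E3N88_18362 to E3N88_18367, had log2 fold changes of 2.53 to 5.63. Its summed level was 42.9, 161 and 152 CPM in flower and 9.91, 8.20 and 7.30 CPM in shoot apex. Flower replicate 1 was the lowest flower library but did not overlap with shoot apex. Root was at 155 ± 20.6 CPM (SD, n = 3) and leaf at 84.4 ± 18.0, while the stem replicates spread over 241, 155 and 28.8 CPM. The run was thus low in shoot apex and present in the other 4 organs.

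The longest shoot apex runs were 2 of 7 IDs each, and again that with the larger summed level is described. This run, E3N88_27912 to E3N88_27918, had log2 fold changes of -4.61 to -1.12. It summed to 129, 142 and 146 CPM in shoot apex and 45.8, 29.3 and 33.1 CPM in flower, without overlap. Leaf lay close to shoot apex at 115 ± 16.0 CPM, stem at 43.0 ± 6.65 and root at 13.6 ± 6.42. E3N88_27912 made up most of the shoot apex sum, at 81.0 ± 3.34 CPM, and had no read in root. E3N88_27916 had the largest change of the run, at 10.4 ± 2.01 CPM in shoot apex and 0.394 ± 0.0379 CPM in flower (edgeR adjusted p = 2.09e-06).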

How the data were processed

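The authors deposited raw read counts per gene ID for 15 libraries, without normalization. HISAT2 is named in the submitters' processing notes. Version, counting program, genome build, annotation and strand handling are not given in the sources used.

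The count tests used edgeR 4.0.16 (R 4.3.3). filterByExpr set which genes were kept, TMM scaled the libraries, and quasi-likelihood tests (glmQLFit, glmQLFTest) were fitted to the 6 libraries of the pair, because replicate spread differs between organs of this series. P-values were adjusted by Benjamini-Hochberg over all 25652 tested genes. CPM used TMM factors of all 15 libraries, which moves log2 ratios of CPM by a median of -0.076 against the fitted ones. Correlations were taken on log2 CPM (prior count 2), and distances of left-out libraries log2(CPM + 0.5). Common coefficients of variation were 15.4% in flower and 13.9% in shoot apex. All replicate pairs differed by more than sampling noise. The procedure was tested on simulated counts. It called 26 of 67 changes of 2-fold, 61 of 67 of 4-fold and 62 of 66 of 8-fold. Of its 153 calls 4 were false. A change of exactly 2-fold lies at the limit of the call rule, so it is missed whenever its estimate falls below 2-fold. The number called at 2-fold is therefore set in part by the rule. Few of the 25326 genes in this step were changed, against 8723 genes called in the data. Whether its shares of changes found and of false calls hold for the data was not tested.

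With no names at hand, IDs were named by rule. In each direction these were the called ID with the largest CPM ratio (at least 10 CPM) and that with the highest CPM. The 2 most abundant within 2-fold and the ends of the longest ID run in each direction were added. Where runs tied for length, that with the larger summed CPM was taken. E3N88_27916 was chosen after its values were seen. Comparisons, lists and rules were chosen with earlier results of these data known. Gene lists by name (floral organs, meristem, pollen and others) could not be matched to IDs. Alternatives were DESeq2 1.42.0, limma-voom (limma 3.58.1), other scalings, filters, call rules, thinning, left-out libraries and a replicate block.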

Additional observations from a re-analysis of the deposited data

How the results depend on the processing

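Calls numbered 5035 to 5469 in flower and 3408 to 4198 in shoot apex when 1 library at a time was left out, and 4728 and 3685 with all 15 libraries in 1 fit. Tested against a change of 2-fold, 3843 and 2143 genes were called, and with no fold limit 8798 and 7880. The count at least 32-fold higher in shoot apex, 54, became 120 without a filter, 84 with DESeq2, and 57 to 105 with 1 library left out. IDs read in shoot apex and not in flower, 9, became 9 to 29 with 1 library left out, 20 when 1 read was allowed and 2 at 5 CPM, where the flower side had 206 in place of 425. At 8-fold, 221 and 17 genes had a next ID called the same way. Each other count stayed within 1.5 times its value under the alternatives run for it, and the 4 named IDs called higher in a tissue stayed called in all fits run for them. The 32-fold counts and the highest-organ counts, with all their alternatives, were added after seeing the data.

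The labels share replicate numbers between tissues. Same-numbered flower and shoot apex libraries deviated from their group means with correlations of -0.066, -0.036 and -0.053. Libraries with different numbers gave -0.017 to 0.058. With 3 libraries per tissue such values cannot show whether the numbers mark a shared plant or day, so pairing remains unknown. With the replicate block 5070 and 3621 genes were called, and 11160 were within 2-fold. Depth limits what no read means: 3 counts correspond to 0.0839 CPM in flower and 0.0716 CPM in shoot apex.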
